A study of Mus musculus with 12 samples.

Results

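Frmd3, Cry2, Gtf2a1, Degs1, Tspan14 and Ubash3b are 6 of the 9073 genes in the deposited count table, chosen because their counts in the RiboTag immunoprecipitate (IP) were very high relative to the lysate RNA (Input) in shGpr151 or control libraries. The values that chose them are the IP over Input ratios, so those ratios are given as a description and were not tested. All 6 were found by Ensembl ID and symbol, and all 6 passed the filter on low counts that kept 8312 genes for testing. That filter was run on the IP and Input columns together. With the Input groups alone it kept Degs1 and none of the other members.

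RiboTag mice carry an allele (RPL22HA+/+) in which Cre recombinase switches on ribosomal protein L22 with a haemagglutinin (HA) tag. Here Advillin-Cre, active in sensory neurons, drove it, so that anti-HA IP retains RNA bound to the ribosomes of those neurons, and the Input holds RNA of all cells in the lysate. The source is labelled as adult neurons of the dorsal root ganglion (DRG), the cluster of sensory neuron cell bodies beside the spinal cord. The 4 groups of 3 columns were IP after AAV-shGpr151, IP after AAV-control, Input after AAV-shGpr151 and Input after AAV-control, all of the same genotype, where AAV is an adeno-associated virus and the hairpin is named for Gpr151, whose product is a receptor with no settled ligand. Cultured neurons of mice preconditioned by sciatic nerve injury, which all 4 groups would share, are named in the series design, but ganglia collected fresh are named in the extraction protocol; the sources used here do not settle this, and give neither age nor the number of animals.

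Within a group the 3 columns differed by little more than counting noise, with a chi-square per degree of freedom of 0.98 to 1.05 in 12 pairs, against 1.80 to 156 in 54 pairs between groups. The columns of a group were therefore added up and taken as 1 sample, and no comparison below has a replicate check. The sums were 3285258 counts in IP shGpr151, 4245486 in IP control, 6148538 in Input shGpr151 and 6332991 in Input control. Levels are in CPM, counts scaled to those totals, and intervals, at 95%, take in only the error of counting, since amplified copies of 1 molecule cannot be recognised here. Log2 ratios are on TMM library sizes, a scaling that holds the bulk of genes level and that moved every log2 ratio of IP over Input by -2.19 in shGpr151 and -2.17 in control relative to CPM. A gene is called where a quasi-likelihood fit of all 12 columns in edgeR passed a Benjamini-Hochberg adjusted threshold of 0.05, and such a call compares these libraries, not the conditions. Gpr151 itself had 96, 65 and 89 counts in the IP columns labelled shGpr151 and 107, 109 and 98 in IP control, with a log2 ratio between their sums whose interval ran from -0.25 to 0.24. In Input its columns held 4, 4 and 5 counts in shGpr151 and 10, 8 and 6 in control, with a log2 ratio of -0.86 (-1.96 to 0.17). Neither difference was called, so the libraries are named by their labels.

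Markers of the labelled tissue were present. The 12 sensory neuron markers, among them Avil, Prph and Tubb3, summed to 16775 CPM in IP shGpr151 and 17368 CPM in IP control, against 1298 CPM in Input shGpr151 and 1104 CPM in Input control. In IP over Input on TMM sizes, 11 of the 12 were called higher in shGpr151 and all 12 in control. The 7 satellite glia markers summed to 2894 and 2829 CPM in IP of shGpr151 and control, against 831 and 904 CPM in their Inputs. The 10 macrophage markers held 412 and 366 CPM in IP of shGpr151 and control, against 371 and 360 CPM in their Inputs. Schwann cell markers, of which 5 of 7 were measured, summed to 531 and 509 CPM in IP of shGpr151 and control, against 309 and 357 CPM in their Inputs. Fibroblast markers (6 of 7) summed to 751 and 591 CPM in IP, against 294 and 347 CPM in Input, and endothelial and mural markers (5 of 8) to 275 and 306 CPM in IP, against 221 and 166 CPM in Input. On TMM sizes the calls for satellite glia markers were 4 higher and 2 lower in shGpr151 and 2 higher and 4 lower in control, and for macrophage markers 2 higher and 8 lower in shGpr151 and 1 higher and 8 lower in control. Schwann cell markers gave 1 higher and 4 lower in both treatments, fibroblast markers 4 higher and 1 lower in shGpr151 and 3 higher and 2 lower in control, and endothelial and mural markers 0 higher and 3 lower in both. The part of other cell types in the values of the 6 transcripts was not tested, and in bulk RNA fewer cells of a type and less RNA per cell cannot be told apart.

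The 6 genes belong to no common pathway. Cry2 encodes cryptochrome 2, a repressor of the circadian clock that acts with PER proteins on the CLOCK and BMAL1 activator pair, which binds the E-box CACGTG. Gtf2a1 encodes the precursor of the large subunits of TFIIA, which steadies the TATA-binding protein (TBP) on promoters. Degs1 encodes the dihydroceramide desaturase that completes ceramide in the de novo pathway. Tspan14 encodes a tetraspanin of the TspanC8 group, whose members escort the protease ADAM10 to the cell surface. Ubash3b encodes Sts-1, a phosphatase that binds CBL ubiquitin ligases and acts in tyrosine kinase signalling. Frmd3 encodes a protein with a FERM domain, a module that links membrane proteins to the cytoskeleton.

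The promoters of 3 of them are shown because Cry2 acts through the E-box and the first of 2 windows of Gtf2a1 and the window of Degs1 each hold 1 copy of it. Each is the 250 bases before an annotated RefSeq start, 5′ to 3′ on the gene's strand, in build GRCm38.p6, which is not the build of the counts. Capitals mark CACGTG, which is its own reverse complement and begins 13 bases before the start of Gtf2a1 and 43 before that of Degs1.
Cry2 (minus strand, chr2:92434070-92434319): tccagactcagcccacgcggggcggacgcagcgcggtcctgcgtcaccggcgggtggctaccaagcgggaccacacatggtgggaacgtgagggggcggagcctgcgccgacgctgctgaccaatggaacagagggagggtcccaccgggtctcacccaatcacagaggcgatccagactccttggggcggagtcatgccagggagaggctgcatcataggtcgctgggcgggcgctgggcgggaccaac
Gtf2a1 (minus strand, chr12:91590488-91590737): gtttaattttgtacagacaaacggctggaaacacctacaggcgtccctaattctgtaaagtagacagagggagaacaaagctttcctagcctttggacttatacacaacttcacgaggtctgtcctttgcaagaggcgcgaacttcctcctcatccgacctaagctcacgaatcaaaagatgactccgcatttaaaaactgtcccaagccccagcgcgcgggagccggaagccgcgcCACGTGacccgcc
Degs1 (minus strand, chr1:182282196-182282445): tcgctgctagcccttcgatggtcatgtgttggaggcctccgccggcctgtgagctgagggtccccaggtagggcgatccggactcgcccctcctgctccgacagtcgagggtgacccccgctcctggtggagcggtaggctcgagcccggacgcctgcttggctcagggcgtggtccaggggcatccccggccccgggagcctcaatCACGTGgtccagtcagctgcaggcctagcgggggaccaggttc
Of the 9 such windows of the 6 genes, 2 held CACGTG, as did 8.40% of the 9328 windows of genes in the count table. Neither the cAMP response element TGACGTCA, in 2.64% of all windows, nor TATAAA, in 6.15% of them on either strand, was in any of the 9. The GC content of these 9 windows ran from 47.6% to 69.6%, inside the 43.6% to 76.8% that held the middle of all windows, from their 5th to their 95th percentile. A match or its absence in this stretch says nothing of which factor acts there.

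The 6 transcripts together made up 0.779% of the IP shGpr151 library and 0.721% of the IP control library, against 0.00213% of Input shGpr151 and 0.00281% of Input control. In the table's median gene the sums were 88 counts in IP shGpr151, 108 in IP control, 30 in Input shGpr151 and 32 in Input control. Each of the 6 had between 2178 and 10890 counts in an IP library and between 4 and 73 in an Input library. They were thus far above the median gene in IP, and 4 of the 6 were below it in both Inputs.

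Frmd3 (ENSMUSG00000049122) had 1149, 1106 and 1129 counts in the IP shGpr151 columns and 1476, 1498 and 1503 in IP control. Its Input columns held 1, 2 and 1 counts in shGpr151 and 4, 3 and 5 in control. No IP column came near an Input column, and in Input shGpr151 the counts sat at or next to 1, the lowest value that the table lists for any gene. In CPM, Frmd3 stood at 1030 (996 to 1065) in IP shGpr151 and 0.651 (0.177 to 1.67) in Input shGpr151, a ratio of 1583-fold (618 to 5815). In control it stood at 1054 CPM (1024 to 1086) in IP and 1.89 CPM (0.979 to 3.31) in Input, a ratio of 557-fold (318 to 1078). It had the highest ratio in both treatments among the 9073 genes listed, each of which has at least 1 count in every column.

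Cry2 (ENSMUSG00000068742) had 715, 760 and 703 counts in the IP shGpr151 columns and 898, 904 and 932 in IP control. In Input it had 4, 5 and 4 counts in shGpr151 and 3, 4 and 4 in control, so the Input columns of the treatments overlapped. The IP over Input ratio in CPM was 314-fold (183 to 590) in shGpr151 and 371-fold (207 to 744) in control, the 5th and 2nd highest of the genes listed. Cry2 and Degs1 were the members whose ratio was not higher in shGpr151 than in control on the TMM scale.

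Gtf2a1 (ENSMUSG00000020962) had 2033, 2035 and 2068 counts in the IP shGpr151 columns and 2073, 2114 and 2161 in IP control. Because the shGpr151 library was smaller, these sums were 1868 CPM (1821 to 1915) and 1495 CPM (1459 to 1533). Its Input columns held 9, 7 and 6 counts in shGpr151 and 6, 10 and 16 in control. The ratio of IP to Input was 522-fold (344 to 834) in shGpr151 and 296-fold (209 to 433) in control, ranking 2nd and 3rd.

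Degs1 (ENSMUSG00000038633) had 2772, 2777 and 2791 counts in the IP shGpr151 columns and 3696, 3666 and 3528 in IP control. It was the member with the most Input counts, 26, 23 and 21 in shGpr151 and 29, 22 and 22 in control, and so the one whose ratios had the narrowest intervals. Those were 223-fold (176 to 286) in shGpr151 and 223-fold (177 to 284) in control, ranking 12th and 6th.

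Tspan14 (ENSMUSG00000037824) had 922, 937 and 921 counts in the IP shGpr151 columns and 944, 978 and 922 in IP control, which made 846 CPM (815 to 878) and 670 CPM (645 to 695). Its Input columns held 5, 2 and 5 counts in shGpr151 and 6, 4 and 11 in control. The ratio was 434-fold (248 to 840) in shGpr151 and 202-fold (132 to 327) in control, ranking 4th and 8th.

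Ubash3b (ENSMUSG00000032020) had 972, 921 and 868 counts in the IP shGpr151 columns and 1132, 1093 and 1089 in IP control. Its Input columns held 2, 1 and 7 counts in shGpr151 and 9, 8 and 12 in control, so every shGpr151 column lay below every control column. The ratio was 517-fold (281 to 1079) in shGpr151 and 170-fold (118 to 255) in control, ranking 3rd and 10th. On the log2 TMM scale the shGpr151 ratio was 6.82, and 7.97 without the third Input shGpr151 column, which held 7 of the 10 counts.

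**Figure D1:**
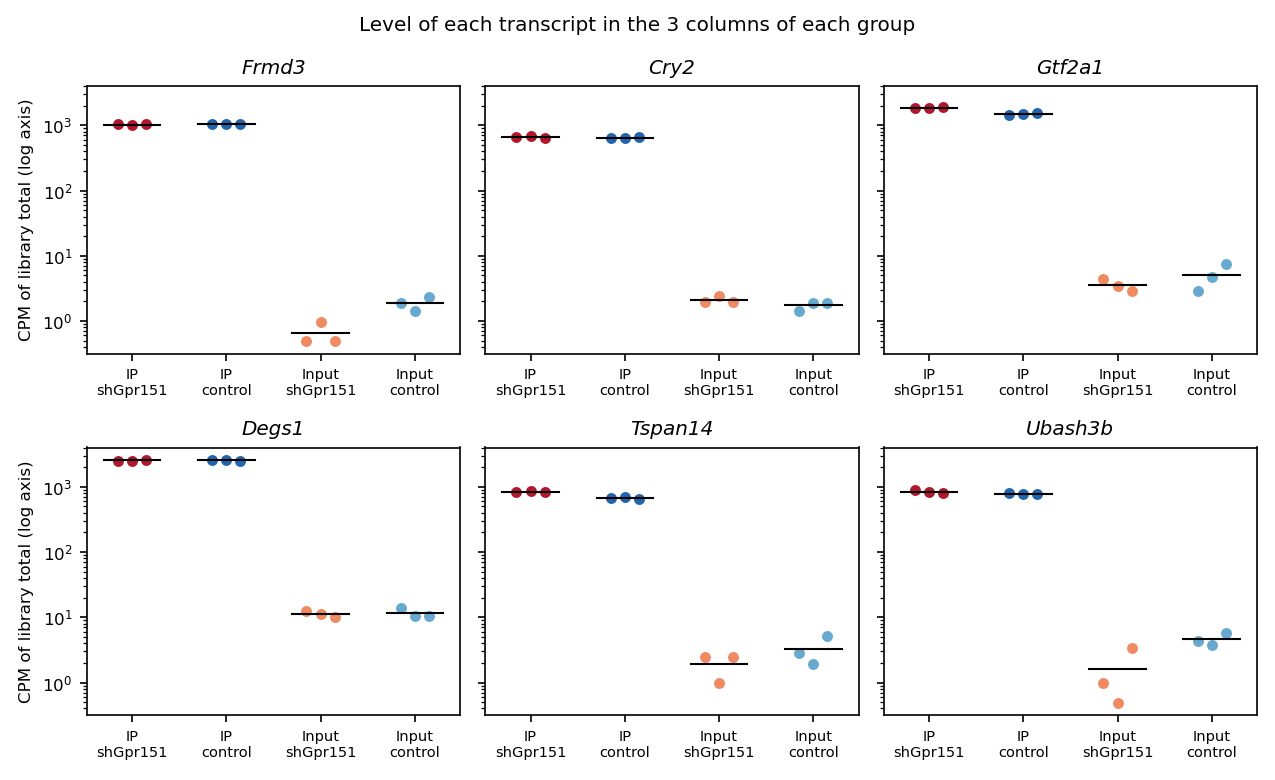
Level of each transcript in CPM of the library total (log axis) in the 3 columns of IP shGpr151, IP control, Input shGpr151 and Input control; points are columns and the line is the summed library. In all 6 panels the summed IP levels, from 644 CPM for Cry2 to 2565 CPM for Degs1 in control, lie far above the Input levels, of which that of Degs1 in control is the highest at 11.5 CPM.

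Over the 24 sets of 3 columns (6 genes in 4 groups) the chi-square per degree of freedom averaged 0.848, with a range of 0.0422 to 3.10. The columns of the 6 genes thus varied about as counting alone would.

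Genes ranking among the members by ratio show that the choice had no sharp edge. In shGpr151 the highest ratios of genes outside the 6 were those of Erap1, an endoplasmic reticulum aminopeptidase that trims antigenic peptides (rank 6), Ifit1, an interferon-induced gene (rank 7), Smarca2, a chromatin remodelling ATPase (rank 8), and Kif21a, a kinesin (rank 9). All of these stood above Degs1, at rank 12. In control they were Slc17a6, the vesicular glutamate transporter VGLUT2 (rank 4), Rgs17, a regulator of G protein signalling (rank 5), Ifit1 (rank 7) and Erap1 (rank 9), which stood above Ubash3b, at rank 10. On the log2 TMM scale the members ran from 5.61 for Degs1 to 8.43 for Frmd3 in shGpr151, beside 5.91 for Ifit1 and 5.80 for Kif21a. In control they ran from 5.24 for Ubash3b to 6.95 for Frmd3, beside 5.72 for Slc17a6 and 5.30 for Erap1. Over all tested genes the median was 0.10 in shGpr151 and 0.06 in control, and 95% of genes lay below 2.66 and 2.37. Between IP and Input 66.6% of tested genes were called in shGpr151, 33.6% higher and 33.0% lower, and 65.3% in control, 32.5% higher and 32.8% lower, and all 6 members were so called, which their choice fixed. On library totals the calls were 6838 higher and 973 lower in shGpr151 and 6962 higher and 921 lower in control, against 2796 and 2739 in shGpr151 and 2703 and 2728 in control on TMM sizes.

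**Figure D2:**
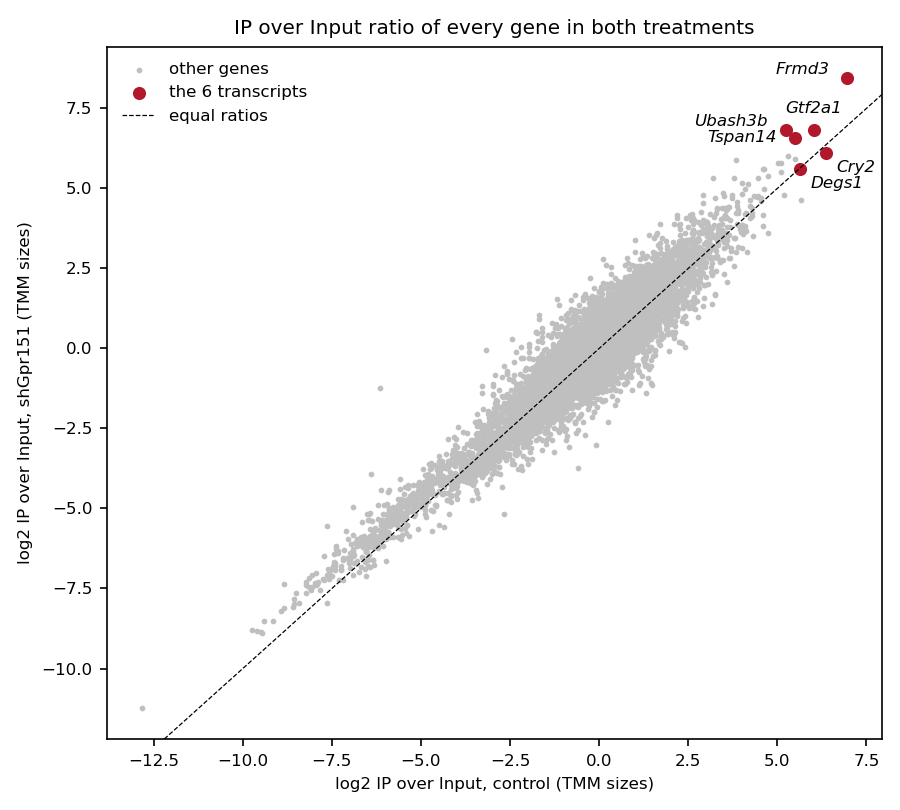
Log2 ratio of IP over Input on TMM sizes in shGpr151 (vertical axis) against control (horizontal axis) for all 9073 genes (grey) and the 6 transcripts (red), with the line of equal ratios. The 6 lie at the upper right end, Frmd3 at 8.43 and 6.95, and Ubash3b, Tspan14, Gtf2a1 and Frmd3 lie above the line.

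The genes most like each member across the 4 summed libraries were found by Euclidean distance between log2 CPM profiles centred on each gene's own mean, among 6017 genes with at least 50 counts in both IP libraries. The profile of Degs1 was nearest to that of Slc17a6, at a distance of 0.13, and then Ifit1, at 0.31. Cry2 was nearest to Slc17a6 (0.59) and then Gtf2a1 (0.62). Gtf2a1 and Tspan14 were each other's nearest, at 0.45, followed by Cry2 for Gtf2a1 (0.62) and Ifit1 for Tspan14 (0.46). Ubash3b was nearest to Tspan14 (0.54) and then Erap1 (0.62). Frmd3 stood farthest from any gene, with Gtf2a1 at 1.48 and Ubash3b at 1.66. With 4 libraries and few Input counts, these distances describe the profiles only.

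The ribosome-bound level of the 6 transcripts was compared between the IP libraries of the 2 treatments. With 1 sample per treatment, this cannot show whether the level differed with the hairpin. IP counts help set the ratio by which the members were chosen, so their IP values are a description. Of the 6, 2 were higher in shGpr151 and 4 were not called. Gtf2a1 had a log2 ratio of 0.28 (0.23 to 0.33) and Tspan14 one of 0.29 (0.22 to 0.37), which in CPM is 1.26-fold for Tspan14. The lowest IP shGpr151 column of each was above its highest IP control column in CPM, as the plot of levels shows. Ubash3b had 0.064 (-0.0097 to 0.14), Cry2 -0.00093 (-0.083 to 0.081), Degs1 -0.058 (-0.099 to -0.017) and Frmd3 -0.077 (-0.14 to -0.012). For these 4 the intervals leave no room for a difference as large as that of Gtf2a1 or Tspan14. The 2 calls of 6 stand beside 8.69% of 8312 tested genes called in either direction, 3.72% called higher and 4.97% called lower.

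Calls were more frequent among genes with many counts, and the 318 tested genes with at least 2734 counts in IP control, the lowest of the 6, give a closer background. Of these, 70.4% were called in either direction and 10.1% higher, beside 2 of the 6 members called, both of them higher. Their median log2 ratio was -0.13 and the range from their 5th to their 95th percentile ran from -0.23 to 0.21. Gtf2a1 and Tspan14 thus lay above the upper end of that range, and the other 4 members inside it but above its median. On library totals alone the ratios were 0.32 for Gtf2a1 and 0.34 for Tspan14, and both were still called, as they were when any 1 of the IP columns was left out, at 0.26 to 0.29 and 0.27 to 0.32. The 722 calls in this comparison were 309 higher and 413 lower on TMM sizes, and 421 higher and 260 lower on library totals. With any 1 IP column left out, 193 to 211 genes were called higher. When the summed libraries were compared with the variation between biological samples (BCV) set at 10%, neither gene was called.

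In Input, where the 6 transcripts had few counts, 1 of them was called in the fit of all 12 columns. With the Input groups alone the filter on low counts kept 4765 genes, and Degs1 was the only member among them. The other members entered this comparison only through their IP counts, so the call is no independent evidence. Input counts help set the ratio by which the members were chosen, so their Input values are a description. Ubash3b was lower in shGpr151, with 10 counts against 29 in control and a log2 ratio of -1.51 (-2.72 to -0.44). Leaving out the first or second Input shGpr151 column or the third Input control column ended that call, at -1.25, -1.09 and -1.32, and leaving out the third Input shGpr151 column gave -2.66. Frmd3, with 4 counts against 12, had -1.56 (-3.65 to 0.16), Tspan14 -0.79 (-1.94 to 0.30) and Gtf2a1 -0.52 (-1.37 to 0.31). Cry2 had 0.26 (-1.01 to 1.56) and Degs1 -0.039 (-0.53 to 0.45). At this depth no difference and a difference of the size of that of Ubash3b were both within the intervals of Frmd3 and Tspan14. Of all tested genes 17.0% were called in Input in either direction, 8.31% higher and 8.66% lower. Of the 4633 with 11 to 73 counts in Input control, the members' range, 4.14% were called in either direction and 2.14% lower. These genes, too, had passed the filter on IP and Input columns together.

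The difference between treatments in the IP over Input ratio combines these comparisons, and since the members were chosen on either ratio their values are a description. It was 1.58 (0.54 to 2.62) for Ubash3b, which was called, beside 14.2% of tested genes called in either direction, 5.41% higher and 8.82% lower, and 4.51% of the 4633 genes in the members' Input range. Left out one at a time, the 12 columns gave 1.15 to 2.73 for Ubash3b, the highest without the third Input shGpr151 column, and its call was lost without the first or second Input shGpr151 column or the third Input control column. The 450 genes called higher were 295 without the second IP shGpr151 column, 298 without the third, and 290 with DESeq2. Frmd3 had 1.49 (-0.15 to 3.12), Tspan14 1.08 (0.054 to 2.11) and Gtf2a1 0.80 (0.013 to 1.58), none of them called. Cry2 had -0.26 (-1.42 to 0.90) and Degs1 -0.018 (-0.49 to 0.46). Ubash3b and Frmd3, with the widest differences, had log2 ratios of -1.51 and -1.56 in Input and of 0.064 and -0.077 in IP. Both passed the filter on low counts only through their IP counts.

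**Figure D3:**
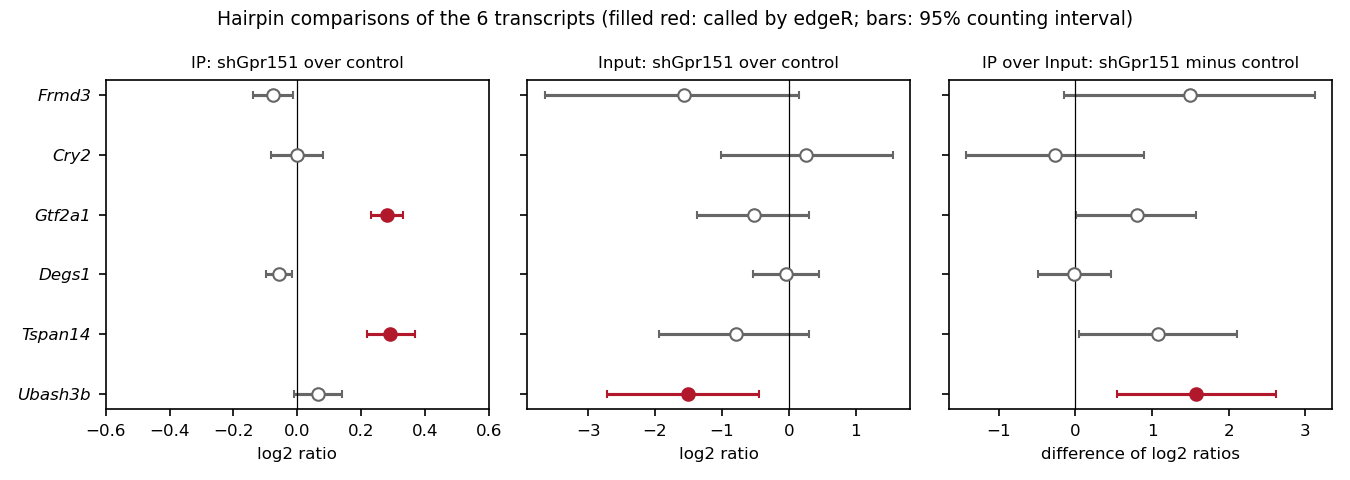
Log2 ratio of shGpr151 over control in IP (left) and Input (middle) and the difference in log2 IP over Input ratio, shGpr151 minus control (right), on TMM sizes, with 95% counting intervals and a different horizontal scale in each panel. Filled red points were called by edgeR: Gtf2a1 at 0.28 and Tspan14 at 0.29 in IP, and Ubash3b at -1.51 in Input and 1.58 in the difference.

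Other tested genes of the pathway or family of each transcript had lower IP over Input ratios than that transcript in both treatments. The members were chosen for a very high ratio, so this order follows from their choice and is a description. Directions below are on TMM sizes, which moved every log2 ratio by -2.19 in shGpr151 and -2.17 in control. Any value between that shift and 0 was above 0 on library totals. Among these were Nr1d1, Tspan15 and Sptlc1 in both treatments, and Gtf2a2, Cers2, Frmd4a and Clock in control, while those of Tbp stayed below 0. The medians and the counts of genes called lower depend on the scale in the same way. Of 27 other circadian clock genes, 12 were tested, and their median log2 IP over Input ratio was 0.17 in shGpr151 and -0.49 in control, with 3 higher and 4 lower in shGpr151 and 2 higher and 5 lower in control. Clock, the activator that Cry2 represses, had 54 and 57 counts in IP of shGpr151 and control and 9 and 21 in their Inputs, with log2 IP over Input ratios of 1.29 and -0.16. Nr1d1, which encodes the repressor REV-ERB alpha, was lower in IP in both, at -1.51 and -1.12. The highest of the list was Bhlhe41, a repressor of clock transcription, at 2.61 and 2.35, and the lowest was Timeless, at -4.10 and -4.56. In IP shGpr151 against IP control 0 of the 12 were called, with a median of 0.08. Cry2, chosen for its ratio, was at 6.10 and 6.36, above each tested gene of the list. Per1, which was not tested, had 18 and 23 counts in IP of shGpr151 and control and 16 and 11 in their Inputs. Its log2 ratios were -1.12 and -0.53. Cry1 and Per2 were not found by symbol among the genes listed.

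The other general transcription factors had lower ratios than Gtf2a1, on both sides of 0. Of 32 other genes of the preinitiation complex, 22 were tested, of which 5 were higher and 5 lower in IP of shGpr151 and 9 higher and 6 lower in control, with medians of 0.12 and 0.43. Gtf2a2, which encodes the small TFIIA subunit and thus the partner of the Gtf2a1 product, was lower in IP, with 241 and 330 counts in IP of shGpr151 and control and 517 and 361 in their Inputs, at log2 ratios of -2.39 and -1.73. Tbp, whose product TFIIA binds, was also lower, at -2.73 and -2.87. Gtf2b, the factor that bridges TBP and RNA polymerase, was higher at 3.13 and 3.50, and Gtf2h1, a TFIIH subunit, had the highest ratios of the list, 4.18 and 4.60. The other TFIIA subunit gene, Gtf2a1, was at 6.83 and 6.04. Between the treatments in IP, 1 of the 22 was called higher and 0 lower, with a median of -0.11 against 0.28 for Gtf2a1. In Input, Gtf2a2 was called higher in shGpr151, at 0.54 (0.34 to 0.74), against -0.52 for Gtf2a1, which was not called.

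Among enzymes of ceramide and sphingolipid metabolism, 23 of 34 listed genes other than Degs1 were tested, of which 8 were higher and 3 lower in IP of shGpr151 and 6 higher and 4 lower in control, with medians of 0.26 and -0.11. Ugcg, which turns ceramide into glucosylceramide, was the highest at 3.71 and 3.46, with 610 and 697 IP counts. Sptlc1, a subunit of the enzyme that starts the pathway, had -0.77 and -0.48, neither called. The ceramide synthase gene Cers2 had 0.23 and -0.40, also not called. Cers6, another ceramide synthase, had 0.61, not called, in shGpr151 and 1.31, called higher, in control. Asah1, the lysosomal ceramidase, had 0.05 and 0.44, not called. In IP shGpr151 against IP control 0 of the 23 were called, with a median of 0.03, beside -0.058 for Degs1.

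Of the tetraspanins and Adam10, 18 of 25 genes other than Tspan14 were tested, of which 8 were higher and 5 lower in IP of shGpr151 and 9 higher and 4 lower in control, with medians of 0.32 and 0.47. Adam10, the protease that TspanC8 proteins escort, was higher in IP, at 1.33 and 1.36. The other TspanC8 genes measured were lower for Tspan15, at -0.91 and -0.96, and near 0 for Tspan17, at 0.28, not called, in shGpr151 and 0.34, called, in control. Tspan5 had 0.32, not called, in shGpr151 and 1.32, called higher, in control. The highest of the list was Tspan13, at 3.42 and 3.43. Between treatments in IP, 0 of the 18 were called higher and 2 lower, with a median of -0.04, against the call of Tspan14 at 0.29. Adam10 had -0.03 (-0.22 to 0.16) there.

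Of 26 other genes with FERM domains, 20 were tested, with 8 higher and 6 lower in IP of shGpr151 and 7 higher and 6 lower in control, and medians of 0.38 and 0.01. Frmd8, with 519 and 524 IP counts, was the highest at 2.44 and 1.95, and Epb41l3, a protein 4.1 family member, had 2.14 and 1.78. Frmd4a had 0.48 and -0.56, neither called. Ptk2, the focal adhesion kinase gene, was the lowest, with 140 and 156 counts in IP of shGpr151 and control against 4796 and 6624 in their Inputs. Its log2 ratios were -6.39 and -7.00. In IP shGpr151 against IP control 1 of the 20 was called higher, Frmd8 at 0.31 (0.14 to 0.49), and 0 lower, with a median of 0.13.

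Ubash3b and its paralog Ubash3a had ratios on opposite sides of 0. Ubash3a had 225 and 212 counts in IP of shGpr151 and control but 3814 and 4656 in their Inputs, and log2 IP over Input ratios of -5.37 (-5.57 to -5.18) and -6.05 (-6.26 to -5.85), against 6.82 and 5.24 for Ubash3b. The labels do not say how reads were divided between these related genes, so both are uncertain to that extent. Cbl, whose product Sts-1 binds, was higher in IP at 4.79 and 2.90, on 5 and 15 Input counts, whereas Cblb had 0.18 and 0.95, not called. Of 19 other genes of the Cbl and Ubash3 list, 13 were tested, of which 6 were higher and 3 lower in shGpr151 and 5 higher and 3 lower in control, with medians of 0.32 and 0.67. In IP shGpr151 against IP control 1 of the 13 was called higher, Ubash3a at 0.41 (0.14 to 0.69), and 0 lower. The IP over Input ratio of Ubash3a also differed between treatments, by 0.68 (0.40 to 0.96), which was called. In Input Ubash3a was called lower in shGpr151, at -0.27 (-0.33 to -0.20), beside -1.51 for Ubash3b.

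**Figure D4:**
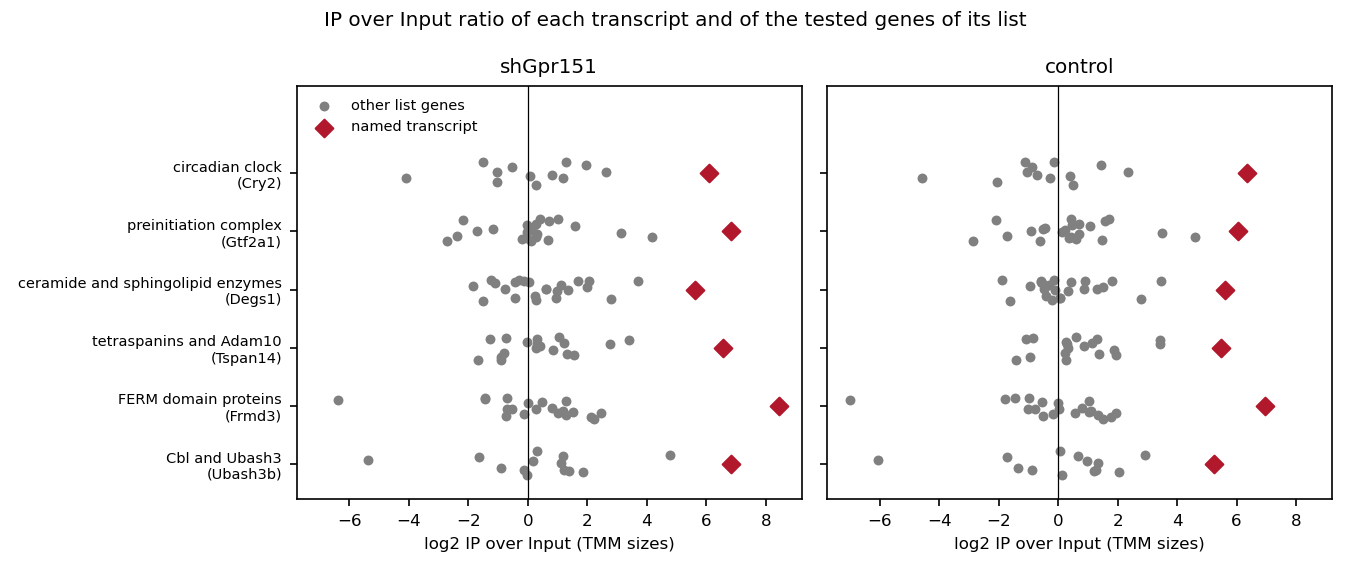
Log2 IP over Input ratio on TMM sizes in shGpr151 (left) and control (right) for each of the 6 transcripts (red diamonds) and the tested genes of the list it belongs to (grey points, spread vertically for legibility). Every diamond lies to the right of the other genes of its list, from 5.61 to 8.43 in shGpr151 and 5.24 to 6.95 in control, and Ptk2 and Ubash3a are the points below -5. The 6 transcripts were chosen for this ratio, so their place follows from the choice.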

How the data were processed

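RNA was measured in mouse DRG sensory neuron lysate and anti-HA IP on a nanopore sequencer after cDNA-PCR barcoding, as the labels' protocols say. Values in the deposited table are raw counts for each Ensembl gene. Per the submitters' processing notes minimap2 and Salmon were used with builds GRCm39 and mm39; no source used here gives versions, strand use or counting rules. The lowest listed count is 1 in any column. Symbols matched 9061 of 9073 IDs.

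Columns were assigned to groups by title. The model was edgeR 4.0.16 (R 4.3.3) with TMM, filterByExpr at a minimum count of 10, 1 mean per group, glmQLFit and glmQLFTest; its common BCV was 1.22%, which reflects columns that differ by counting noise, so no p-value of a gene is printed. Column totals ran from 1094523 to 2111544 counts. Ratios are of summed counts with exact conditional (Clopper-Pearson) intervals, levels have exact Poisson intervals, and differences of log2 ratios have Wald intervals. The model was also run on simulated counts with counting noise alone and 1 profile shared by IP and Input, unlike these data. Of 50 genes changed 1.25-fold between the IP groups it recovered 11, and of 50 changed 4-fold it recovered 46. This does not check the calls made here.

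The members, partner lists and named partners were chosen with earlier results of these data known. Named besides these are the 4 highest-ratio genes outside the 6 in each treatment, the 2 nearest profiles per member, and each list's extremes, which were chosen after values were seen. Alternatives were RLE size factors, library totals, DESeq2 1.42.0, omission of the filter, a filter at a mean count of 20, a fit of only the groups compared, a replicate block, each column left out, and summed libraries with an assumed BCV of 10% or an exact binomial test. Promoter windows are from RefSeq, GRCm38.p6.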

Additional observations from a re-analysis of the deposited data

Results flagged for a closer look

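The difference between treatments in the Ubash3b IP over Input ratio was called, at 1.58 (0.54 to 2.62) on the log2 scale, shGpr151 minus control. It rests on 10 Input counts in shGpr151 (2, 1 and 7) against 29 in control (9, 8 and 12), and on 2761 IP counts in shGpr151 against 3314 in control. Left out one at a time, 9 of the 12 columns left the call in place, and the difference ran from 1.15 to 2.73. It was not called without the first or second Input shGpr151 column, at 1.31 and 1.15, or without the third Input control column, at 1.39. Among the 4633 tested genes with 11 to 73 counts in Input control, 4.51% were called for this difference. Ubash3b passed the filter on low counts only through its IP counts. The members were also chosen on either ratio, so this is a description of these libraries.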

How the results depend on the processing

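For the 6 transcripts, 447 rechecked values kept their direction and their call, 10 kept their direction and lost the call, 2 gained a call and 10 changed sign. All that changed sign were of Cry2 or Degs1. The log2 ratio was recomputed only with RLE size factors, on library totals or with 1 column left out. Under the other settings only the call was recomputed, so direction could not change there. The values also include the IP over Input ratios, whose direction and call the choice of members fixed, so the 447 do not measure robustness. Cry2 in IP shGpr151 over IP control became 0.042 on library totals and ran from -0.034 to 0.0203 with 1 column left out. Degs1 ran from -0.12 to 0.11 in Input and from -0.17 to 0.0647 in the difference of ratios with 1 column left out, and that difference was 0.0029 on library totals. Degs1 was called lower in IP, at -0.077 with RLE size factors and at -0.078 without the third IP control column. With summed libraries and an assumed BCV of 10%, chosen for single members after seeing the data, Gtf2a1 and Tspan14 in IP and Ubash3b in Input and in the difference of ratios were no longer called. Under that setting 1 gene was called between the IP libraries, 0 of them higher (273 genes at an unadjusted p under 0.05), 85 between the Inputs and 15 for the difference, against 722, 1411 and 1183. DESeq2 called 451 genes between the IP libraries, 108 of them higher, against 309. With 1 column left out 193 to 211 genes were called higher and 567 to 641 in all. Deviations of same-numbered columns from their group means had correlations of -0.0118 to 0.0185 in 18 pairs. The columns of a group differ by little more than counting noise, so this cannot show whether replicate numbers paired samples. The replicate block gave 736 calls between the IP libraries, 1405 between the Inputs and 1187 for the difference. Input counts of 4 to 73 limit every ratio that involves Input.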

Other observations

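The genes that ranked beside the 6 transcripts, and the partner gene Cbl, differ in how the treatments compare. Smarca2 and Kif21a were named for their ratio in shGpr151 alone, and Slc17a6 and Rgs17 for theirs in control alone. That choice favours a higher ratio in the treatment that named them, so their differences are a description. Slc17a6, the glutamate transporter of excitatory neurons, had 3271 and 4151 counts in IP of shGpr151 and control and 28 and 26 in their Inputs, and its ratio differed by -0.14 (-0.92 to 0.63), shGpr151 minus control. Rgs17 had 670 and 771 IP counts and 11 and 5 Input counts, a difference of -1.03 (-2.57 to 0.50) that was not called. Smarca2 had 721 and 826 IP counts and 5 and 19 Input counts, a difference of 2.04 (0.61 to 3.46) that was called. Of all tested genes 14.2% were called for this difference in either direction and 5.41% higher. Cbl, from the list of Ubash3b, ranked lower, at 28 in shGpr151 and 211 in control. It had 339 IP counts in each treatment and 5 and 15 in their Inputs, a difference of 1.89 (0.41 to 3.37) that was not called. Kif21a, with 5450 and 6224 IP counts, was called higher in IP shGpr151 than in IP control, at 0.14 (0.08 to 0.19), and Erap1, at -0.15 (-0.27 to -0.03), was not called.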
